A study of Ipomoea batatas with 9 samples.

Results

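The storage response that was shared by 2 temperatures was examined in storage roots of sweetpotato (Ipomoea batatas), cultivar Xushu 18. All 9 RNA-seq libraries of the series entered the comparison. In 3 libraries the roots had been stored at 14 °C, in 3 they had been stored at 4 °C, both at 85% relative humidity, and in 3 they had not been stored. The 6 stored libraries were set against the 3 not stored, with each temperature given equal weight, so that the stored mean does not lean to either store.

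Each library was a pool of 7 roots, and every root came from the same cultivar. Roots were sampled repeatedly during storage, but the time in store behind these libraries was not given in the sources used here. Storage, the time since harvest, the handling of the roots before sampling and the temperature of each store therefore cannot be told apart from one another in the comparison with roots not stored. The RNA extraction text names an animal tissue, which cannot describe a root, so no detail of the extraction is taken from it. Since each library holds RNA of bulk root tissue, fewer cells of a type and less RNA per cell cannot be told apart.

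A sweetpotato storage root stays alive after harvest. It lives on its starch and on vacuolar proteins such as sporamin, it breathes, and it seals wounds. At 14 °C, a temperature close to that of commercial stores, roots keep for a long time, whereas chilling injures this tropical species. Handling, wounding, touch and light are known in plants to raise, within minutes to hours, transcription factors of the ERF, DREB and WRKY families, calcium sensors, hormone enzymes and cell wall enzymes. Plastids of root cells exposed to light can turn green and then make the proteins of photosynthesis.

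Libraries held 67643612 to 95421913 estimated counts over 110110 assembled contigs. A contig is an assembled transcript sequence, and several contigs can come from 1 gene or from its copies in this hexaploid, so counts of contigs are not counts of genes. Levels are given as CPM, counts per 1000000 of the scaled library size. The 100 most abundant contigs held 26.3% to 29.6% of the counts without storage, between 18.7% and 20.2% in the 14 °C libraries and between 10.2% and 10.7% in the 4 °C libraries. Pearson's correlation of log2(count + 1) across contigs was 0.947 to 0.967 between libraries of 1 group and 0.803 to 0.917 between stored and not stored.

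On the average of both temperatures 19848 of 94802 tested contigs were higher in stored roots (20.9%) and 21733 were lower (22.9%), by edgeR's quasi-likelihood test with Benjamini-Hochberg adjustment at a false discovery rate of 0.05. Against roots not stored, 15.1% of contigs rose and 15.7% fell at 14 °C. At 4 °C 26.0% rose and 26.6% fell. The contigs called in the same direction at both temperatures are the shared response: 7758 rose at both (8.18% of those tested) and 8872 fell at both (9.36%). Both comparisons use the same 3 libraries of roots not stored, so chance deviations of those libraries enter both. These 8.18% and 9.36% are the background for every count of a gene group given here. They include many contigs of low level. Both shares were larger among the 47349 contigs averaging 1 CPM or more, of which 5522 rose and 6092 fell at both. The median KEGG term had 12.7% of its contigs higher and 10.5% lower at both. A gene group with shares near these is therefore not set apart from annotated contigs at large. A count of contigs called at both does not give the level of a family, whose sum can follow its most abundant contigs or those called at 1 temperature.

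Of the contigs higher on average, 39.1% were called at both temperatures, 46.0% only at 4 °C and 11.6% only at 14 °C. For the contigs lower on average these shares were 40.8%, 44.1% and 10.5%. A contig that was called at 1 temperature and not at the other is not thereby shown to differ between them. The 4 °C and 14 °C libraries themselves differed at 47.8% of contigs. Among the contigs that rose at both, 4412 (56.9%) showed no called difference between the stores, 2833 (36.5%) rose more at 4 °C and 513 (6.61%) rose more at 14 °C. Among those that fell at both, 4665 (52.6%) showed no called difference, 3324 (37.5%) fell further at 4 °C and 883 (9.95%) fell further at 14 °C. The median log2 fold change of the contigs that rose was 1.17 at 14 °C and 1.54 at 4 °C, and that of the contigs that fell was -1.44 and -1.99. At least 4-fold changes at each temperature were found for 1335 contigs that rose and 2310 that fell. With TMM scaling 46.7% of the calls at both temperatures were rises. Scaling by library totals alone moved the median log2 fold change of all contigs from 0.02 to 0.27 at 14 °C and from -0.02 to 0.08 at 4 °C. It brought the share of rises among calls at both to 64.2%, and the share of rises on the average from 47.7% to 58.7%. Counts of rises and falls are therefore relative to the TMM scaling.

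A first group of shared falls was made of transcription factors of the ERF and DREB family, DNA-binding proteins that switch on genes of stress and ethylene responses. Of 162 tested contigs 78 fell at both temperatures (48.1%) and 2 rose. The median log2 fold change of the family was -1.48 at 14 °C and -1.15 at 4 °C, against 0.02 and -0.02 over all contigs. The list was added after values had been seen. Its summed level was 5840, 7070 and 4920 CPM in the roots not stored, 2650, 2720 and 3020 CPM at 14 °C and 3190, 3150 and 2980 CPM at 4 °C, with no overlap between stored and not stored. Taken singly, 110 contigs were called lower and 7 higher at 14 °C, and 93 lower and 49 higher at 4 °C.

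Within this family the DREB1 factors, known in Arabidopsis as CBF proteins that start the response to cold, fell in every contig. All 6 contigs with a DREB1 symbol fell at both temperatures, also with any library left out. Their summed level was 308, 575 and 198 CPM in the roots not stored. It was 2.26, 3.46 and 3.07 CPM at 14 °C and 1.46, 1.34 and 1.38 CPM at 4 °C. The 4 °C libraries all lay below the 14 °C libraries. Most of the sum came from DREB1D (comp55413_c1), which read 277, 503 and 176 CPM without storage, 2 to 3.06 CPM at 14 °C and 1.31 to 1.33 CPM at 4 °C. Its log2 fold change was -6.93 (SE 0.41, adjusted p = 3.1e-06) at 14 °C and -7.92 (SE 0.43, adjusted p = 1.9e-07) at 4 °C.

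DREB1A (comp66303_c1) had 3.6, 17.7 and 2.37 CPM without storage and no count in any stored library. Its not-stored mean of 7.88 ± 8.49 CPM (SD, n = 3) was at least 222 times a floor of 3 counts per library at 14 °C and at least 200 times that at 4 °C. These bounds rest on the mean and leave out the spread between pools. DREB1C (comp62041_c1) was at 17.2 ± 6.73 CPM (SD, n = 3) without storage and at 0.218 ± 0.00968 CPM at 14 °C. ERF109 (comp54831_c9), a factor induced within minutes by wounding and oxidants in Arabidopsis, read 8.27, 19.6 and 8.27 CPM without storage. Only 9 counts at 14 °C and 4 counts at 4 °C remained over 3 libraries each, which makes the not-stored level 346 times that at 14 °C (95% interval 182 to 757) and 696 times that at 4 °C (95% interval 272 to 2560). Such intervals cover counting error only and not the spread between pools. ERF026 (comp54371_c2) read 42, 137 and 22.7 CPM without storage and 0.0508 to 0.361 CPM in the 6 stored libraries. Replicate 2 of the roots not stored was the highest library for DREB1A, DREB1D, ERF109 and ERF026, and without it 72 contigs of the family fell at both.

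**Figure D1:**
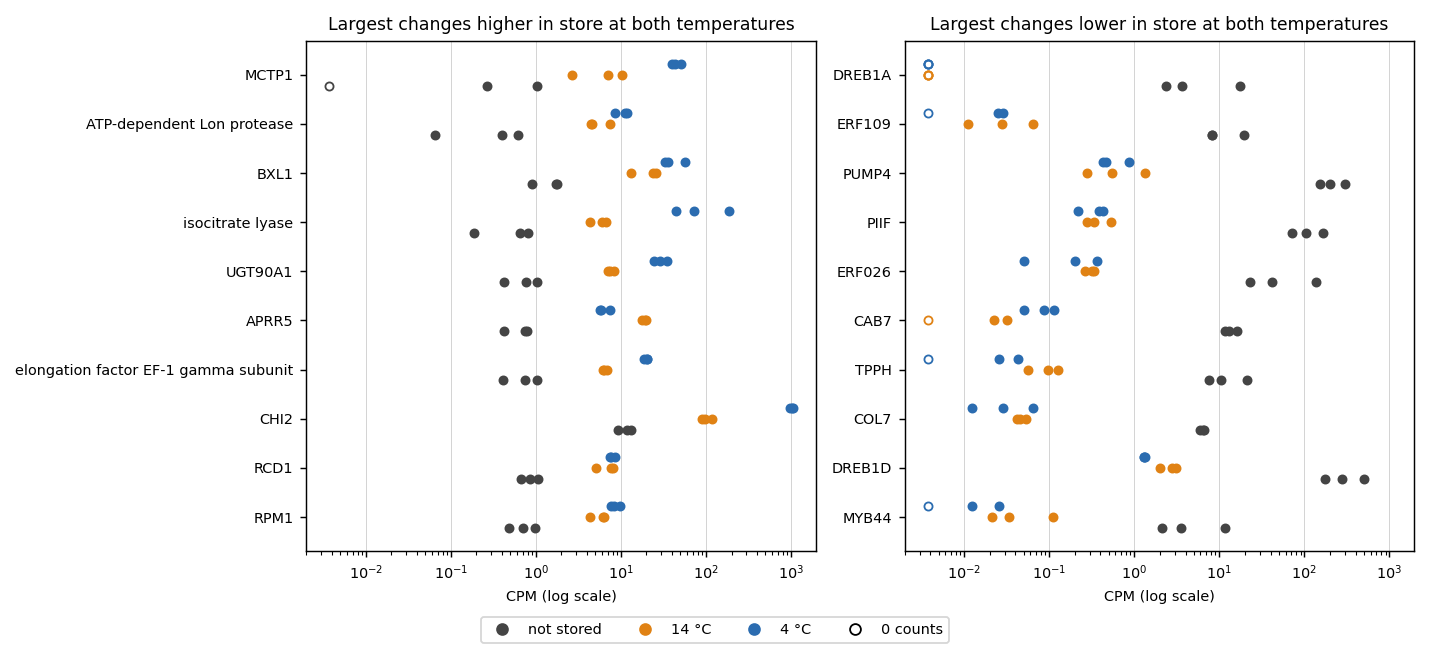
Level in every library (CPM, log scale) of the 10 named contigs with the largest shared rise (left) and the 10 with the largest shared fall (right), by group; open symbols at the left edge are libraries with 0 counts. The contigs were chosen so that every stored library lies on one side of every library not stored; the DREB1A contig shown (comp66303_c1) has 0 counts in all 6 stored libraries.

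Signalling proteins were also among the falls. Calcium sensors, proteins that bind calcium ions and pass the signal on, had 72 of 286 contigs lower at both (25.2%) and 29 higher (10.1%). The falls included calmodulin (21 of 85 contigs), the calmodulin-like CML37 (5 of 5) and CML31 (4 of 4), and the calcium-regulated kinases CIPK32 (3 of 3), CIPK5 (3 of 3), CIPK14 (3 of 4) and CIPK16 (3 of 4). Calmodulin as a whole was not lower at 4 °C, where 39 contigs were called higher and 23 lower and its sum was 2260 ± 111 CPM, against 2070 ± 509 CPM without storage and 1390 ± 101 CPM at 14 °C (SD, n = 3). CPK1 and CPK32, calcium-dependent kinases, had 3 of 4 contigs each higher at both. The calmodulin contig comp48962_c1 read 40.8, 81.8 and 26.1 CPM without storage, 0.436 to 0.53 CPM at 14 °C and 2.23 to 2.51 CPM at 4 °C. Contigs described as extracellular signal-regulated kinase, which in plants are MAP kinases, fell at both in 25 of 77 cases (32.5%) and rose in 7. WRKY factors, regulators of defence, fell at both in 32 of 149 contigs (21.5%) and rose in 3. With 1 contig per symbol 5 of 34 fell at both (14.7%) and 0 rose, against 9.38% lower and 7.24% higher over all contigs counted so. All 4 contigs of WRKY53, all 5 of WRKY41 and 6 of 8 of WRKY40 were among the falls. WRKY53 (comp62970_c1) read 53.7, 73.1 and 43.2 CPM without storage, 0.963 to 1.41 CPM at 14 °C and 0.533 to 0.747 CPM at 4 °C. The WRKY family as a whole did not stay low at 4 °C, where 49 contigs were called higher and 54 lower and its summed level was 1820 ± 186 CPM, against 1370 ± 186 CPM without storage and 1000 ± 19.3 CPM at 14 °C (SD, n = 3). MYB44 (comp47790_c1), a MYB factor of stress responses, read 3.53, 11.8 and 2.14 CPM without storage and at most 0.11 CPM in any stored library.

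Some genes of hormone synthesis and response fell at both. The list of TIFY genes, which encode the JAZ repressors of jasmonate responses, was added after values had been seen. Of its 25 contigs 6 fell at both (24.0%) and 1 rose. At 14 °C 17 of them were called lower and 1 higher, at 4 °C 7 lower and 10 higher, and the family summed to 412 ± 126 CPM without storage, 163 ± 9.65 CPM in the 14 °C store and 415 ± 72.9 CPM in the 4 °C store (SD, n = 3). TIFY10A (comp37865_c4) read 18.5, 37.7 and 12.9 CPM without storage and 0.156 to 0.722 CPM in the stored libraries. ACS3 (comp40575_c2), an enzyme that makes the ethylene precursor, read 6.86, 16 and 4.83 CPM without storage, 0.138 to 0.248 CPM at 14 °C and 6 counts over 3 libraries at 4 °C. GH3.6 (comp47971_c1), an enzyme that joins auxin to amino acids, read 6.47, 14.7 and 2.27 CPM without storage and at most 0.206 CPM in any stored library. GA2OX1 (comp69442_c3), which inactivates gibberellins, had a log2 fold change of -6 at 14 °C (SE 0.47, adjusted p = 1e-05) and of -4.72 at 4 °C (SE 0.43, adjusted p = 4.9e-06). Replicate 2 of the roots not stored was again the highest library for these 4 genes. The part of handling before sampling in these levels was not tested.

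The cytokinin list fell at both in 33 of 138 contigs (23.9%) and rose in 13, or in 8 without replicate 2 of the roots not stored or of the 14 °C store. Type-A response regulators, which cytokinin induces and which damp its signal, were among these falls: ARR9 fell in 8 of 11 contigs, ARR8 in 6 of 8 and ARR15 in 3 of 3. ARR15 (comp36088_c1) was at 19 ± 5.76 CPM without storage, 2.16 ± 0.568 CPM at 14 °C and 2.06 ± 0.477 CPM at 4 °C (SD, n = 3). The summed level of the cytokinin list was 976 ± 37.2 CPM without storage, 1020 ± 27.8 CPM in the 14 °C store and 830 ± 14.8 CPM in the 4 °C store (SD, n = 3). Genes of abscisic acid synthesis and breakdown fell at both in 12 of 55 contigs (21.8%) and rose in 1. In that list 9-cis-epoxycarotenoid dioxygenase, the committed step of synthesis, fell at both in 6 of 15 contigs, with 13 called lower at 4 °C and 6 lower and 5 higher at 14 °C. The ethylene list, with 7 contigs lower and 12 higher of 107, was close to the background shares. The auxin list had 18 of 139 contigs lower, or 11 without 14 °C replicate 1 or 2, and 11 higher, or 6 without replicate 1 or 2 of the roots not stored.

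Enzymes that loosen and rebuild the cell wall formed the second large group of falls. Xyloglucan endotransglucosylases cut and rejoin the xyloglucan chains that tie cellulose fibres together, and expansins loosen the bonds between them. Of the 83 contigs described as xyloglucan endotransglucosylases 54 fell at both temperatures (65.1%) and 6 rose. The GO term for this activity had the highest share of shared falls among the GO terms named (54 of 82 contigs, 65.9%). Its median log2 fold changes were -4.54 at 14 °C and -3.75 at 4 °C. One contig of XTH16 (comp8541_c3) was at 154 ± 96.5 CPM without storage, 3.24 ± 0.347 CPM at 14 °C and 6.94 ± 0.841 CPM at 4 °C (SD, n = 3). Its log2 fold change was -5.57 (SE 0.43, adjusted p = 1.7e-05) at 14 °C and -4.47 (SE 0.40, adjusted p = 9.3e-06) at 4 °C. XTH25 (comp47128_c3) read 5.49, 12.4 and 4.21 CPM without storage, at most 0.127 CPM at 14 °C and 7 counts over 3 libraries at 4 °C.

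The family did not move as one. XTH23 (comp81887_c1) rose from 25.3 ± 2.52 CPM to 102 ± 16.7 CPM in the 14 °C store and 661 ± 70.6 CPM in the 4 °C store, and XTH27 (comp12704_c2) rose from 128 ± 11.4 CPM to 233 ± 8.22 and 378 ± 6.21 CPM (SD, n = 3). XTH9 (comp17070_c1) was called higher at 14 °C and lower at 4 °C. The summed level of all 83 contigs was 1140, 2230 and 820 CPM without storage, 448, 499 and 473 CPM at 14 °C and 1270, 1310 and 1300 CPM at 4 °C. The sum was lower in every 14 °C library than in any library not stored, but at 4 °C it lay within the range of the roots not stored.

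Expansins fell at both in 11 of 25 contigs (44.0%) and none rose at both. Their summed level was 388 ± 130 CPM without storage, 110 ± 2.93 CPM at 14 °C and 66.3 ± 2.48 CPM at 4 °C (SD, n = 3). UDP-glucuronate 4-epimerase, which makes the sugar nucleotide for pectin, fell at both in 10 of 15 contigs (66.7%) and rose in 1. CSLC4 (comp64048_c1), a synthase of the xyloglucan backbone, read 59, 114 and 61 CPM without storage, 7.58 to 9.16 CPM at 14 °C and 13.9 to 18.5 CPM at 4 °C. Pectinesterases, which strip methyl groups from pectin, fell at both in 10 of 56 contigs and rose in 2. At 4 °C 20 of them were called higher and 17 lower, and pectinesterases summed to 636 ± 80 CPM without storage, 342 ± 14.3 CPM in the 14 °C store and 1680 ± 89.6 CPM in the 4 °C store (SD, n = 3). Other pectin enzymes of the list did not share these falls. Pectate lyases had 2 of 20 contigs higher and none lower at both, with 12 higher and 1 lower at 4 °C. Polygalacturonases had 3 of 26 higher and 1 lower at both, with 13 higher and 9 lower at 4 °C. Over all wall-loosening enzymes 82 of 220 contigs fell at both (37.3%) and 13 rose (5.91%), while their sum was 2800 ± 1020 CPM without storage, 1130 ± 37.2 CPM in the 14 °C store and 3320 ± 73.9 CPM in the 4 °C store (SD, n = 3).

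Photosynthesis proteins were the third group. Light-harvesting proteins, which bind chlorophyll around the photosystems, and the subunits of the photosystems fell at both in 53 of 108 contigs (49.1%) and rose at both in none. The median log2 fold change of the list was -1.18 at 14 °C and -2.64 at 4 °C. Light-harvesting proteins summed to 1020, 884 and 702 CPM without storage, 356, 341 and 348 CPM at 14 °C and 65.1, 66.2 and 49.4 CPM at 4 °C, so the 3 groups did not overlap. Photosystem subunits summed to 1200 ± 226 CPM without storage, 240 ± 6.26 CPM at 14 °C and 131 ± 6.6 CPM at 4 °C (SD, n = 3). CAB7 (comp54284_c1), an antenna protein of photosystem I, read 16.1, 11.6 and 12.9 CPM without storage, 5 counts over 3 libraries at 14 °C and 0.0508 to 0.114 CPM at 4 °C.

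Some antenna contigs were called lower at 4 °C and not at 14 °C. CAB8 (comp42879_c2) was at 66.6 ± 10.5 CPM without storage, 61.8 ± 2.2 CPM at 14 °C (log2 fold change -0.11, SE 0.16, adjusted p = 0.63) and 1.43 ± 0.352 CPM at 4 °C (log2 fold change -5.54, SE 0.20, adjusted p = 1.7e-09). Some contigs of other plastid functions were lower at both, though most contigs of each term named here were called in neither direction. The Calvin cycle term had 14 of 30 contigs lower at both (46.7%) and none higher. Chlorophyll and porphyrin metabolism had 29 of 110 lower (26.4%) and 4 higher, with glutamyl-tRNA reductase, the entry step of chlorophyll synthesis, in 6 of the falls. Carotenoid synthesis had 25 of 93 lower (26.9%) and 1 higher. Its falls held beta-carotene hydroxylase in 7 contigs, but also 9-cis-epoxycarotenoid dioxygenase in 6, xanthoxin dehydrogenase in 3 and abscisic acid 8'-hydroxylase in 2, enzymes of abscisic acid that are counted in the abscisic acid list as well. ClpC, a plastid chaperone, had 11 of 19 contigs higher at both, or 6 without replicate 1 of the roots not stored and 7 without 14 °C replicate 1, and none lower at both.

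**Figure D2:**
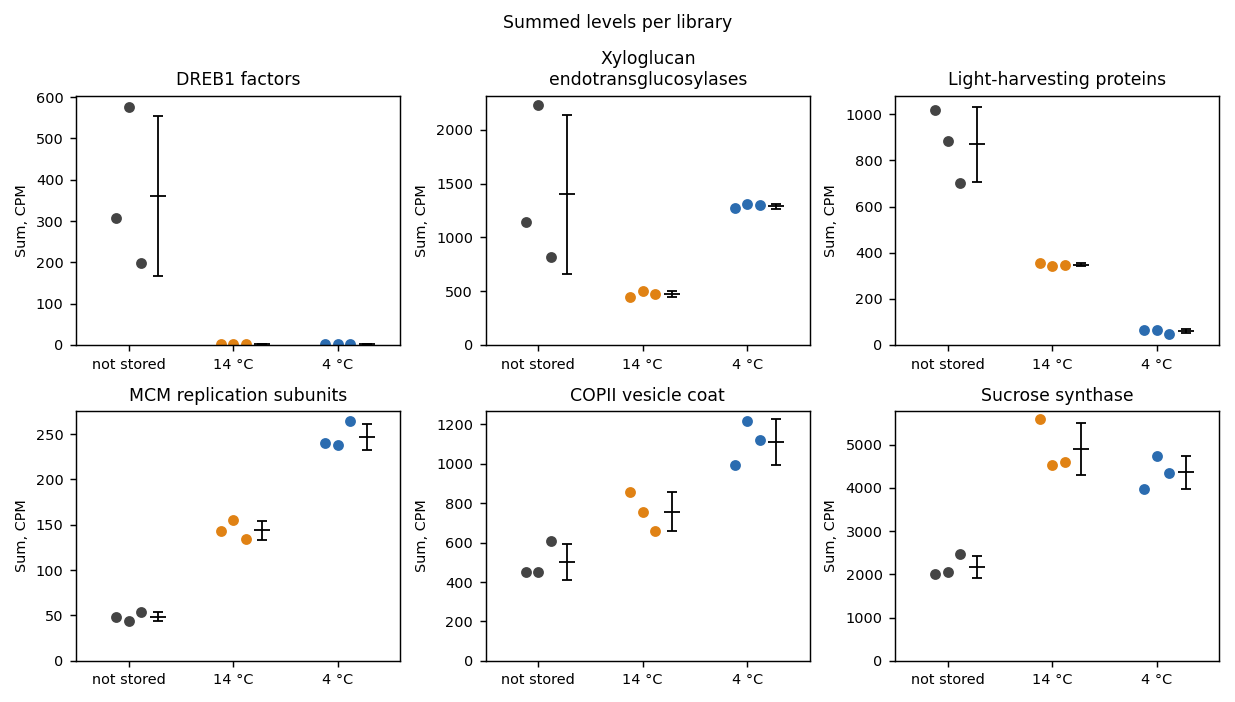
Summed level (CPM) of all tested contigs in 6 groups, with 1 point per library and the mean ± SD of 3 libraries to its right; each axis starts at 0. The DREB1 factors and the light-harvesting proteins are lower in all 6 stored libraries, the MCM subunits, the COPII coat and sucrose synthase are higher, and the xyloglucan endotransglucosylases are low at 14 °C but within the not-stored range at 4 °C.

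Several smaller groups and single genes fell at both. A list of proteinase inhibitors, proteins that block the proteases of feeding insects and are induced by wounding, was added after values had been seen. It held only 4 contigs under 2 symbols, 3 of them PIIF, and all 4 fell at both. Their summed level was 361, 241 and 186 CPM without storage, 1.22 to 1.56 CPM at 14 °C and 1.4 to 3.42 CPM at 4 °C. PIIF (comp36563_c18), one of them, fell by 8.24 on the log2 scale at 14 °C (SE 0.41, adjusted p = 1e-06) and fell by 8.38 at 4 °C (SE 0.42, adjusted p = 6.9e-08). PUMP4 (comp59899_c2), a mitochondrial carrier of the uncoupling protein family, read 199, 302 and 152 CPM without storage and 0.28 to 1.33 CPM in the stored libraries. Trehalose-phosphate phosphatases, which make the sugar trehalose from a signalling sugar phosphate, fell at both in 12 of 36 contigs (33.3%) and rose in 4, or in 2 under an offset for contig length. Their sum did not follow these falls, with 616 ± 83.3 CPM without storage, 606 ± 40.9 CPM in the 14 °C store and 1170 ± 46.8 CPM in the 4 °C store (SD, n = 3). TPPH (comp36157_c9) read 10.5, 21 and 7.65 CPM without storage, 0.0559 to 0.127 CPM at 14 °C and 5 counts over 3 libraries at 4 °C. The constans-like factor COL7 (comp67216_c4) read 5.99 to 6.58 CPM without storage and at most 0.0635 CPM in any stored library.

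Genes of membrane lipids and water channels were among the falls. Fatty acid desaturases, which put double bonds into membrane lipids, fell at both in 11 of 43 contigs (25.6%), and none rose at both. Their summed level was 1600, 1390 and 1290 CPM without storage, 801, 781 and 906 CPM at 14 °C and 447, 503 and 404 CPM at 4 °C. FAD2 (comp47987_c1), which makes linoleic from oleic acid, was at 68.4 ± 10.3 CPM without storage, 20.7 ± 2.91 CPM at 14 °C and 19 ± 6.09 CPM at 4 °C (SD, n = 3). Aquaporins, the water channels, fell at both in 23 of 104 contigs (22.1%) and rose in 3, while their sum was lower at 4 °C and overlapped at 14 °C, with 2230 ± 208 CPM without storage, 2190 ± 164 CPM in the 14 °C store and 926 ± 48.5 CPM in the 4 °C store (SD, n = 3). The tonoplast type carried 13 of these falls out of 27 contigs and the plasma membrane type 8 of 38. TIP1-3 (comp35967_c1) fell from 10.8 ± 3.72 CPM to 0.172 ± 0.0485 CPM in the 14 °C store and 0.647 ± 0.0582 CPM in the 4 °C store (SD, n = 3). RFS2 (comp94845_c1), an enzyme of the raffinose sugars, read 204 to 218 CPM without storage, 85 to 97.7 CPM at 14 °C and 75.6 to 80.6 CPM at 4 °C.

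**Figure D3:**
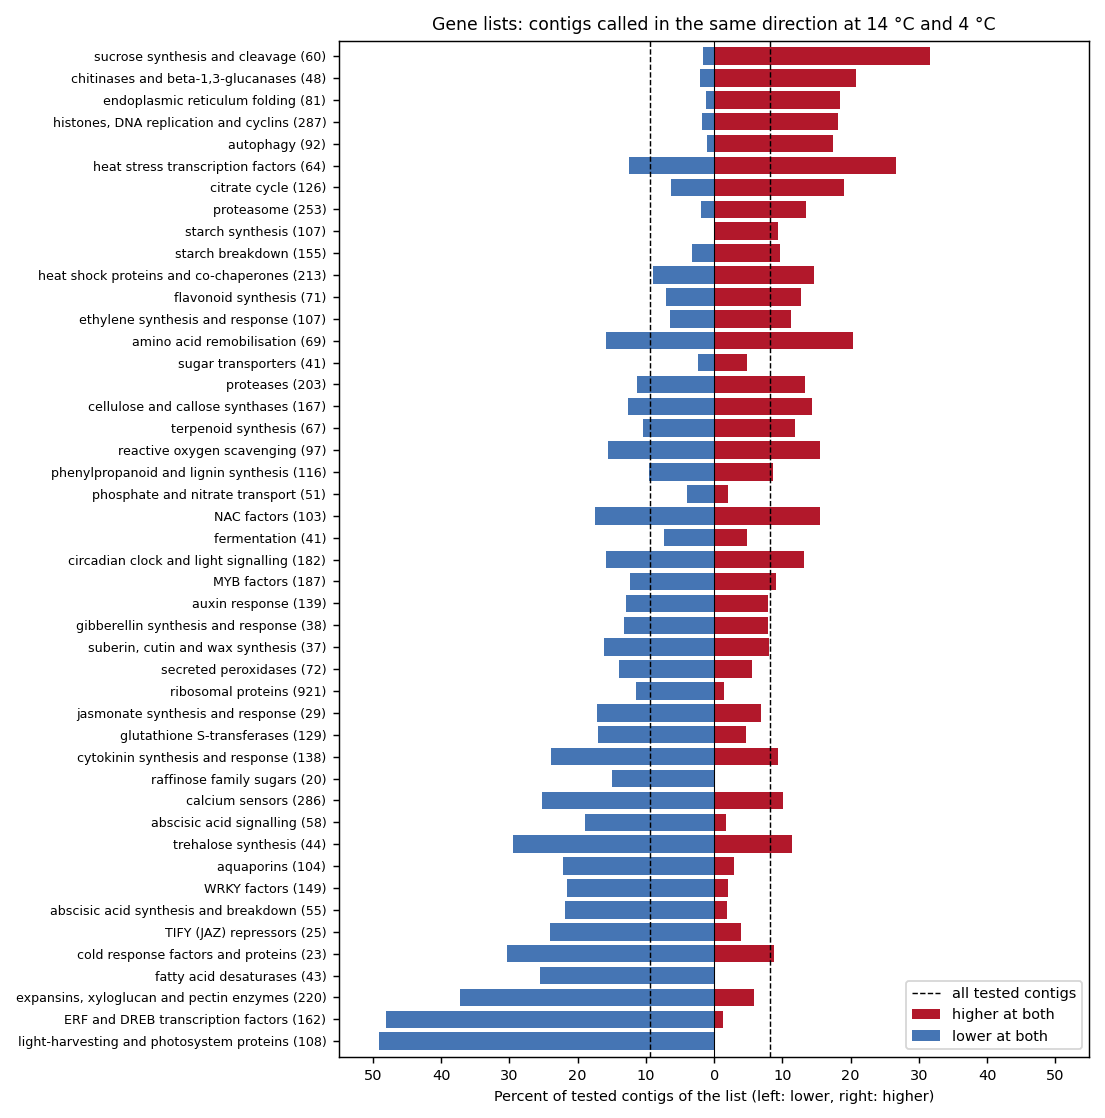
Share of tested contigs called higher (right) and lower (left) at both temperatures for the gene lists with at least 20 tested contigs, whose number is in brackets; dashed lines mark the shares over all tested contigs, 8.18% and 9.36%. The photosynthesis list reaches 49.1% and the ERF and DREB list 48.1% on the left, and the sucrose list reaches 31.7% on the right.

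Genes of DNA replication were among the shared rises. The MCM proteins form the ring-shaped helicase that is loaded onto DNA before it is copied. Of 17 tested contigs of MCM proteins 14 rose at both temperatures (82.4%) and none fell at both. The rises numbered 14 with any library left out as well. Their summed level was 48, 44 and 53.6 CPM without storage, 143, 155 and 134 CPM at 14 °C and 240, 238 and 264 CPM at 4 °C. MCM4 (comp90274_c3) rose from 4.96 ± 0.65 CPM to 20.3 ± 1.29 and 46.0 ± 1.71 CPM, and the contig of MCM7 with the symbol PRL (comp76463_c1) from 1.95 ± 0.244 CPM to 12.2 ± 2.5 and 30.3 ± 2.24 CPM (SD, n = 3). For MCM7 the log2 fold change was 2.65 (SE 0.17, adjusted p = 1.6e-06) at 14 °C and 3.96 (SE 0.18, adjusted p = 7.8e-09) at 4 °C.

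Some other replication genes rose as well. DNA polymerase epsilon subunit 1, the leading-strand polymerase, rose at both in 5 of 7 contigs, and the licensing factor CDT1A in 4 of 5, while subunit 2 of polymerase epsilon had 2 of 7 contigs higher and 1 lower. DNA polymerase alpha and primase, which start new strands, rose at both in 12 of 34 contigs and fell in 1, but their sum was lower at 14 °C, with 146 ± 6.36 CPM without storage, 119 ± 1.8 CPM in the 14 °C store and 191 ± 7.42 CPM in the 4 °C store (SD, n = 3). Structural maintenance of chromosome and condensin proteins, which fold chromosomes, rose at both in 14 of 37 contigs and fell in 2; this count was 7 without replicate 1 or without replicate 2 of the roots not stored, and 9 without 14 °C replicate 1 or 2 or 4 °C replicate 3. Core and linker histones rose at both in 5 of 125 contigs, and in 3 without replicate 1 or replicate 2 of the roots not stored. This count depended on the scaling, with 15 under library totals alone, where 11589 of all contigs rose at both, and 9 under an offset for contig length. At 14 °C 33 histone contigs were called lower and 7 higher, at 4 °C 75 were called higher and 7 lower. Over histones, replication and cyclins together 52 of 287 contigs rose at both (18.1%) and 5 fell, or 9 without replicate 3 of the roots not stored.

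The coats of transport vesicles had the highest shares of rises among the GO terms named. COPII coats bud from the endoplasmic reticulum, and clathrin with its adaptor complexes carries cargo to the vacuole and from the cell surface. Of 30 contigs of the COPII coat 19 rose at both (63.3%) and none fell at both. They included 4 of 9 contigs named sec31, 4 of 4 named SEC23, 3 of 3 named sec23 and 3 of 3 of the SEC24-type gene At3g07100. The coat summed to 450, 450 and 606 CPM without storage, 855, 756 and 657 CPM at 14 °C and 992, 1220 and 1120 CPM at 4 °C. A contig of sec31 (comp4356_c1) rose from 8.78 ± 0.545 CPM to 21.7 ± 1.83 CPM in the 14 °C store and 26.6 ± 2.68 CPM in the 4 °C store (SD, n = 3; adjusted p = 2e-05 and 6.5e-07).

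The clathrin-coated vesicle membrane had 22 of 38 contigs higher at both (57.9%) and none lower at both; without replicate 2 of the roots not stored 14 were called. Adaptor AP-1 subunit beta-1 gave 7 of these rises and the vacuolar sorting receptor VSR1 gave 5. Clathrin heavy chain rose at both in 18 of 46 contigs (39.1%) and fell in 1. Its summed level was 312, 343 and 562 CPM without storage, 869, 685 and 511 CPM at 14 °C and 800, 948 and 982 CPM at 4 °C, so replicate 3 of the roots not stored overlapped replicate 3 of the roots at 14 °C. The fold changes of these groups were modest, with medians of 0.99 and 1.07 for COPII and 0.59 and 1.18 for the clathrin membrane on the log2 scale at 14 °C and 4 °C.

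Sucrose synthase, the enzyme that splits sucrose into fructose and UDP-glucose in sink tissue, was among the rises. Of 60 contigs of sucrose synthesis and cleavage 19 rose at both (31.7%) and 1 fell, and 16 of the rises were sucrose synthase (of 35 contigs, 45.7%). Sucrose-phosphate synthase, which makes sucrose, rose at both in 2 of 18 contigs and summed to 245 ± 40.9 CPM without storage, 429 ± 60.3 CPM in the 14 °C store and 264 ± 28.8 CPM in the 4 °C store (SD, n = 3). Beta-fructofuranosidase, or invertase, had 1 of 7 contigs higher and 1 lower at both. Sucrose synthase summed to 2020, 2060 and 2480 CPM without storage, 5590, 4530 and 4590 CPM at 14 °C and 3980, 4750 and 4350 CPM at 4 °C. The contigs behind these like sums differed between the stores. The contig comp63836_c2 was at 905 ± 96.9 CPM without storage, 2350 ± 392 CPM at 14 °C (adjusted p = 4.1e-05) and 915 ± 119 CPM at 4 °C (adjusted p = 0.94). The contig comp75648_c1 rose from 24.8 ± 1.94 CPM to 140 ± 36.8 CPM in the 14 °C store and 818 ± 171 CPM in the 4 °C store (SD, n = 3). The contig comp69679_c2 read 14.2, 15.4 and 21.9 CPM without storage, 134, 96.6 and 91.6 CPM at 14 °C and 323, 529 and 389 CPM at 4 °C.

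Some genes that turn stored carbon into energy rose at both. Starch breakdown as a whole stood near the background, with 15 of 155 contigs higher at both (9.68%) and 5 lower, or 3 without 14 °C replicate 2 or 3. At 4 °C 84 of its contigs were called lower and 34 higher, and the list summed to 18600 ± 1210 CPM without storage, 14600 ± 879 CPM in the 14 °C store and 3660 ± 259 CPM in the 4 °C store (SD, n = 3). The rises held alpha-amylase in 7 of 26 contigs and glucan, water dikinase, which opens starch granules, in 6 of 16. The alpha-amylase AMY1.1 (comp7884_c4) rose from 11.8 ± 1.22 CPM to 49.1 ± 12.2 CPM in the 14 °C store and 623 ± 105 CPM in the 4 °C store (SD, n = 3). Isocitrate lyase (comp98846_c1), of the glyoxylate cycle that makes sugar precursors from fat, read 0.188, 0.804 and 0.658 CPM without storage, 6.61, 6.03 and 4.38 CPM at 14 °C and 72.3, 44.8 and 187 CPM at 4 °C. The citrate cycle had 24 of 126 contigs higher at both (19%) and 8 lower, a count that was 13 without replicate 2 of the roots not stored and 15 and 14 without 14 °C replicates 1 and 2. The citrate cycle summed to 3690 ± 188 CPM without storage, 3690 ± 64.1 CPM in the 14 °C store and 6820 ± 476 CPM in the 4 °C store (SD, n = 3). Aconitase rose in 6 of 10 contigs and the E1 subunit of 2-oxoglutarate dehydrogenase in 5 of 10. The sugar importer STP13 (comp18856_c4) read 19.2 to 23.6 CPM without storage, 46.4 to 52.6 CPM at 14 °C and 149 to 338 CPM at 4 °C. It does not stand for the sugar transporter list, in which 2 of 41 contigs rose at both (4.88%) and 1 fell. In that list 17 were called higher and 3 lower at 14 °C, and 15 higher and 15 lower at 4 °C.

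Some genes of protein breakdown and folding were among the rises. The shares of the protease and proteasome lists were near the 12.7% of the median KEGG term. The protease list as a whole had 27 of 203 contigs higher (13.3%) and 23 lower (11.3%) at both, with 55 higher and 91 lower at 4 °C. The legumain contig At4g32940 (comp27015_c1), a vacuolar processing protease, read 22.5, 33.3 and 29.4 CPM without storage, 205, 191 and 133 CPM at 14 °C and 1150, 914 and 1360 CPM at 4 °C. Both legumain contigs rose at both temperatures. Carboxypeptidase D rose at both in 11 of 48 contigs and fell in 2, whereas subtilisins, another class of proteases, fell at both in 14 of 68 and rose in 1. The Lon protease (comp98895_c3), which degrades damaged proteins in organelles, was at 0.361 ± 0.281 CPM without storage, 5.48 ± 1.67 CPM at 14 °C and 10.5 ± 1.77 CPM at 4 °C (SD, n = 3). The proteasome list had 34 of 253 contigs higher at both (13.4%) and 5 lower; 16 rose without replicate 1 or without replicate 2 of the roots not stored, and 21 without 14 °C replicate 1 or 4 °C replicate 2. The proteasome list summed to 4750 ± 303 CPM without storage, 4800 ± 238 CPM in the 14 °C store and 11500 ± 746 CPM in the 4 °C store (SD, n = 3). Autophagy genes rose at both in 16 of 92 contigs (17.4%) and fell in 1; 8 rose without replicate 2 of the roots not stored and 10 without 14 °C replicate 2.

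Folding in the endoplasmic reticulum had 15 of 81 contigs higher at both (18.5%) and 1 lower, of which 11 were protein disulfide isomerases, described in the table as the beta polypeptide of prolyl 4-hydroxylase. That folding list summed to 1530 ± 104 CPM without storage, 1470 ± 39.8 CPM in the 14 °C store and 3040 ± 342 CPM in the 4 °C store (SD, n = 3). With 1 contig per symbol 4 of 33 in it rose at both (12.1%) and 1 fell. The longest of 5 length classes, contigs over 1299 bases, held 24 of its contigs. Of these 3 rose at both (12.5%) and 0 fell, against 18.1% higher over all contigs of that class. Heat stress transcription factors rose at both in 17 of 64 contigs (26.6%) and fell in 8, or in 5 without 4 °C replicate 1. The rises held HSFB2B in 6 of 10 contigs and HSF30 in 5 of 8, and the falls held HSFB4 in 3 of 4. Counted with 1 contig per symbol, 4 of 22 rose at both (18.2%) and 5 fell (22.7%), so rises did not outnumber falls. Of the heat stress factors in that longest class 4 of 23 rose at both (17.4%) and 3 fell. Under the offset for contig length 16 of the 64 rose at both and 7 fell. Heat shock proteins and their partners rose in 31 of 213 (14.6%) and fell in 19 (8.92%).

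The defence-related chitinase CHI2 (comp79536_c1), an enzyme that cuts the chitin of fungal walls, rose from 11.4 ± 1.93 CPM to 101 ± 14.5 CPM in the 14 °C store and 1020 ± 36.6 CPM in the 4 °C store (SD, n = 3). The log2 fold changes were 3.15 (SE 0.15, adjusted p = 3.4e-07) and 6.48 (SE 0.18, adjusted p = 7.1e-10). Chitinases and beta-1,3-glucanases rose at both in 10 of 48 contigs (20.8%) and fell in 1, but in 5 without replicate 1 of the roots not stored or 14 °C replicate 1 or 3, and in 4 without replicate 2 of the roots not stored or of the 14 °C store. The contig BXL1 (comp23395_c3), whose symbol is that of a beta-xylosidase and whose product is given as beta-glucosidase, read 0.894 to 1.76 CPM without storage, 13.3 to 25.7 CPM at 14 °C and 33.4 to 56.7 CPM at 4 °C. The clock component APRR5 (comp107962_c3) was higher at 14 °C, with 17.6 to 19.8 CPM, than at 4 °C, with 5.71 to 7.45 CPM, and read 0.42 to 0.788 CPM without storage; the hour of sampling was not given in the sources used here. RCD1 (comp102700_c2), a regulator of responses to oxidants, rose 3.01 and 3.19 on the log2 scale at 14 °C and 4 °C and did not pass the test of a difference between them (0.18, SE 0.20, adjusted p = 0.50).

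Kinases and lipid kinases of membrane signalling were also among the rises. Casein kinase 1 rose at both in 18 of 45 contigs and fell in 3, with 10 rises without replicate 1 of the roots not stored. Glycogen synthase kinase 3, the plant kinases of brassinosteroid signalling, rose in 8 of 18 and fell in 2. Phosphatidylinositol phosphate 5-kinase, which makes the membrane signal lipid of vesicle traffic, rose in 25 of 65 and fell in 2, with 15 rises without replicate 2 of the roots not stored. ABC transporters of the B and C subfamilies, pumps for auxin and for conjugated compounds, rose in 33 of 90 and fell in 4, or in 2 without replicate 1 of the roots not stored or 4 °C replicate 1 or 3. Those transporters summed to 885, 942 and 1210 CPM without storage, 2030, 1880 and 1460 CPM at 14 °C and 2630, 2870 and 3190 CPM at 4 °C.

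The KEGG and GO annotation of the deposited table was read term by term against the same background. Over 194 KEGG terms the median share was 12.7% higher at both and 10.5% lower at both, and over 762 GO terms it was 12.5% and 7.32%. No enrichment test was run, and the terms named are those with the highest shares. GO terms that shared most of their contigs with a term already named in that direction were passed over. Many KEGG names come from animal pathways, so the products behind a share matter more than its name. Circadian rhythm of the fly (26 of 63 higher at both, 41.3%) and Hedgehog signalling (27 of 70, 38.6%) rest on casein kinase 1 and glycogen synthase kinase 3. The 18 and 8 rises of these kinases make up all the rises of the fly term and all but 1 of those of Hedgehog signalling. Basal cell carcinoma (8 of 21, 38.1%) rests on the same 8 rises of glycogen synthase kinase 3 alone. Bacterial invasion of epithelial cells (28 of 103, 27.2%) rests on clathrin heavy chain, with 18 of the rises. Novobiocin biosynthesis (7 of 22, 31.8%, with 5 lower) has all its rises in aspartate aminotransferase, and viral myocarditis (11 of 41, 26.8%; 6 without replicate 2 of the roots not stored) mostly of a translation initiation factor. Inositol phosphate metabolism rose in 48 of 152 (31.6%) and ABC transporters in 38 of 133 (28.6%).

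Among the KEGG terms with the highest shares of falls, antenna proteins (24 of 52, 46.2%) and photosynthesis (44 of 98, 44.9%) came first. Aldosterone-regulated sodium reabsorption (25 of 83, 30.1%) had all its falls in the MAP kinases, olfactory transduction (21 of 86, 24.4%) in calmodulin and riboflavin metabolism (10 of 39, 25.6%) in a single product. With 1 contig per symbol the aldosterone term had 6 of 32 lower and 4 higher. Counted so, olfactory transduction had 12 of 55 lower and 3 higher, and riboflavin metabolism 0 of 9 lower and 1 higher. Isoquinoline alkaloid synthesis fell in 8 of 33 contigs and rose in 7, so it had no direction; the falls numbered 5 without replicate 2 of the roots not stored or 14 °C replicate 2. Among the GO terms the oxygen evolving complex fell at both in 13 of 23 contigs (56.5%). The terms plastid (17 of 33, 51.5%) and stomatal lineage progression (11 of 22, 50%) both held protein phosphatases, with 8 and 6 of the falls. Of the GO terms with the highest shares of rises, chromosome condensation (11 of 21, 52.4%; 6 without replicate 2 of the roots not stored), replication initiation (12 of 25, 48.0%), mismatch repair (9 of 20, 45.0%), protein targeting to the vacuole (17 of 38, 44.7%) and nuclear chromatin (12 of 28, 42.9%) followed the vesicle coats. The term protein metabolic process (12 of 28, 42.9%) held the 11 ClpC contigs among its rises, and numbered 6 without replicate 1 of the roots not stored and 7 without 14 °C replicate 1.

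**Figure D4:**
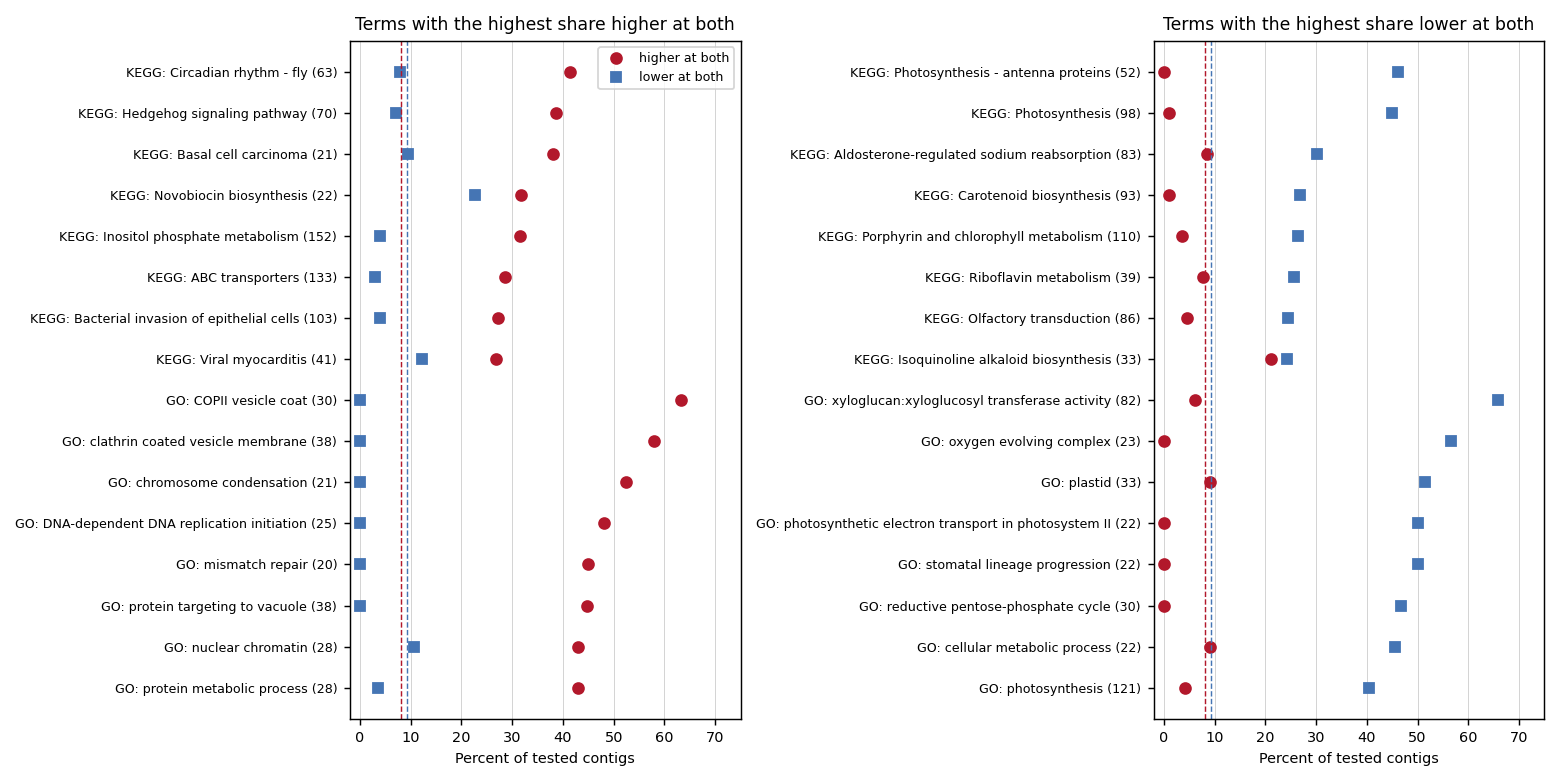
Share of tested contigs called higher (circles) and lower (squares) at both temperatures for the KEGG and GO terms with the highest shares in each direction, with the number of tested contigs in brackets; dashed lines mark the shares over all tested contigs. GO terms that share most of their contigs with a term already shown in that direction are left out. COPII vesicle coat reaches 63.3% on the left and xyloglucan:xyloglucosyl transferase activity 65.9% on the right.

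The share of contigs that rose at both depended on contig length. It was 3.71% in the shortest of 5 length classes with equal numbers of contigs and 18.1% in the longest, contigs over 1299 bases. Among contigs averaging 1 CPM or more it went from 6.29% to 23.7%, while the share that fell at both was 12.9% in the shortest class and 8.08% in the longest. Several of the rising groups are made of long contigs, with a median length of 1931 bases for the COPII coat against 554 bases over all contigs. Among the long COPII contigs 14 of 20 rose at both (70.0%), and among the long contigs of replication initiation 8 of 12 (66.7%), against that 18.1%. Levels were also centred by contig length, with the medians of 20 finer length classes interpolated over length. These medians were taken over contigs averaging 1 CPM or more. Then 16 of 30 COPII contigs, 16 of 38 of the clathrin membrane, 14 of 17 MCM contigs and 16 of 35 of sucrose synthase were called higher at both. Under that centring 54 of 83 xyloglucan endotransglucosylases and 76 of 162 ERF and DREB contigs were called lower at both. The part of length in the rises was otherwise not tested.

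**Figure D5:**
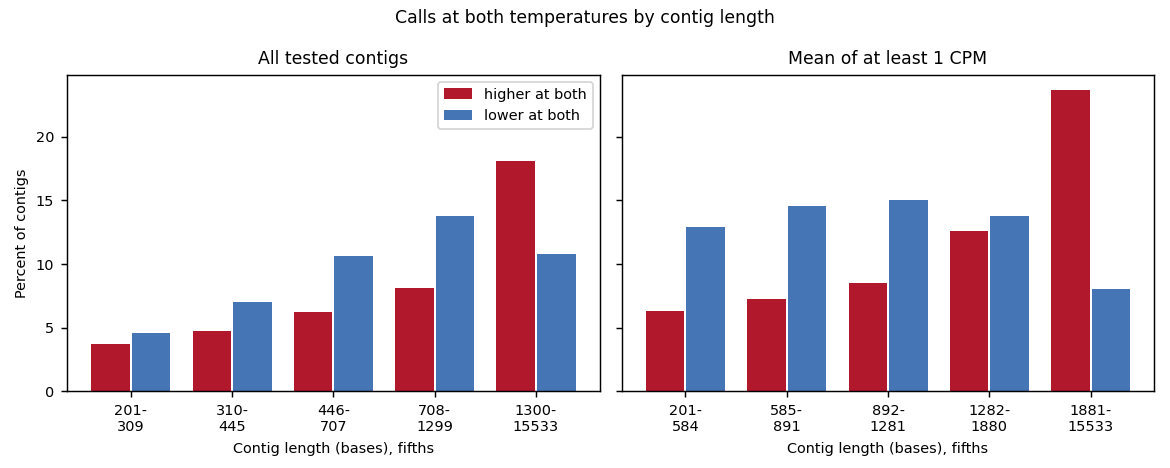
Share of contigs called higher and lower at both temperatures in 5 classes of contig length (bases), for all tested contigs (left) and for those averaging 1 CPM or more (right). The share of rises goes from 3.71% to 18.1% on the left and from 6.29% to 23.7% on the right.

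The storage genes of the root itself did not share 1 direction. Sporamin, the main storage protein, summed to 109000, 103000 and 69600 CPM without storage, 26000, 28300 and 34900 CPM at 14 °C and 232, 213 and 23.6 CPM at 4 °C. At 4 °C all 9 sporamin contigs were called lower, and at 14 °C 2 were. The sporamin contig GSPO-B1 (comp1393_c34) passed the test at 14 °C only narrowly (log2 fold change -1.97, SE 0.66, adjusted p = 0.0498) and missed it with most single libraries left out. Starch synthesis went opposite ways, with medians of 1.11 at 14 °C and -3.01 at 4 °C on the log2 scale. Its 10 contigs that rose at both (of 107, 9.35%) were all of ADP-glucose pyrophosphorylase, the first step of starch synthesis, and none fell at both. Sporamin and starch synthesis mark storage parenchyma and the photosynthesis list marks green tissue, and of these sporamin and the photosynthesis list were lower in every stored library than in any library not stored. The starch synthesis list summed to 10600 to 14400 CPM without storage, 28800 to 36900 CPM at 14 °C and 547 to 618 CPM at 4 °C. The list of histones, replication and cyclins, which marks dividing cells, summed to 2920 to 3580 CPM without storage, 2910 to 3320 CPM at 14 °C and 5500 to 5940 CPM at 4 °C. The suberin, cutin and wax list, a marker of the corky skin, had 3 of 37 contigs higher and 6 lower at both and summed to 280 to 333, 230 to 242 and 257 to 294 CPM in the same order. The part of such cell types in the shared response was not tested.

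Ribosomal proteins were called differently in each store. Of them 13 of 921 contigs rose at both (1.41%) and 106 fell at both (11.5%), a count that was 165 without replicate 3 of the roots not stored. At 14 °C 498 contigs were called lower and 22 higher, while at 4 °C 160 were called lower and 241 higher. The organelle type fell at both in 41 of 176 contigs (23.3%) and the cytosolic type in 61 of 702 (8.69%; 111 without replicate 3 of the roots not stored). The chitinase, peroxidase, phenylpropanoid and fermentation lists summed higher in every 4 °C library than in any other library. Secreted peroxidases, for example, summed to 346 to 384 CPM without storage, 207 to 215 CPM at 14 °C and 5000 to 10600 CPM at 4 °C, and 10 of 72 contigs fell at both. Phenylpropanoid and lignin genes rose at both in 10 of 116 contigs and fell in 11, or in 6 without 14 °C replicate 1 or 2.

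Several other lists had contigs that moved in both directions. NAC factors rose in 16 of 103 contigs and fell in 18, MYB factors rose in 17 of 187 and fell in 23, and genes of the clock and light signalling rose in 24 of 182 and fell in 29. Scavengers of reactive oxygen rose in 15 of 97 contigs (9 without replicate 2 of the roots not stored) and fell in 15. Amino acid remobilisation rose in 14 of 69 and fell in 11, with glutamine synthetase lower in 8 of 24. Cellulose and callose synthases rose in 24 of 167 and fell in 21. Other lists had more shared falls than rises. Glutathione S-transferases fell in 22 of 129 (17.1%) and rose in 6, or in 3 without replicate 1 or 2 of the roots not stored or 14 °C replicate 2, but at 4 °C 64 were called higher and 28 lower. Genes of abscisic acid signalling fell in 11 of 58 (19%) and rose in 1, and the list of cold response factors and proteins, which includes late embryogenesis proteins, fell in 7 of 23 (30.4%) and rose in 2, with 10 called higher and 8 lower at 4 °C.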

How the data were processed

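RNA-seq of 9 libraries, each a pool of 7 roots, was analysed from 1 table that the authors deposited. Per the file headers it holds estimated counts, TPM and RPKM for each library, the contig length, gene symbols, product descriptions, KEGG pathways and GO terms. The authors' estimated counts (fractional, in part whole numbers) were rounded to whole numbers here. The deposited TPM and RPKM, scaled by the authors for length and depth, served only to check the units. Tools named, without roles, in the submitters' processing notes are StringTie 1.3.4d, HISAT2 2.0.4, cutadapt 1.9, edgeR and DESeq2. The counter, genome build and strand were not given in the sources used here. Antisense and near-identical copies therefore cannot be told apart. The GO cell of 40 contigs was not used here, and no contig name matched the reference gene table, so no coordinates or sequences are printed.

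Groups were fitted in edgeR 4.0.16 (R 4.3.3) with TMM scaling, filterByExpr and robust quasi-likelihood over 9 libraries in 3 groups, with no block. The contrasts were each temperature against not stored and the equally weighted mean of both, at a Benjamini-Hochberg false discovery rate of 0.05 over 94802 of 110110 contigs; 411 had no count. The replicates are separate pools of roots, so p-values measure the spread between pools. The floor of 3 counts per library equals 0.0318 to 0.0426 CPM of the scaled library size, and ratios with 9 or fewer counts in a group carry exact binomial 95% intervals. Intervals and floors cover counting error only. The step was also run on simulated counts, drawn with the spread fitted to these libraries and with no effect of contig length. That run cannot speak to such an effect, and its outcome is not reported here.

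Named contigs were the 10 largest changes per direction, ranked by the smaller of the changes at 14 °C and 4 °C, among contigs called in the same direction at both and on the average, with a symbol or informative product, at least 5 CPM in the higher groups and no overlap between stored and not stored, 1 contig per symbol, plus the first by that rank in each of 49 gene lists, 61 in all. Other contigs and subsets of lists were chosen after their values were seen. Lists were matched on product description, or on symbol where there was none. The matching was refined, 4 of the lists were added and the contig-length offset was chosen after values had been seen. KEGG and GO terms needed 20 to 300 tested contigs and 5 symbols, and the 8 with the highest shares per direction and vocabulary were named. A GO term that shared most of its contigs with a KEGG or GO term already named in that direction was passed over. The members, lists and terms were chosen with earlier results of these data known. Alternatives were other scalings (DESeq2 size factors, library totals alone), filters, tests (DESeq2 1.42.0, limma-voom with limma 3.58.1), thresholds, groupings, the replicate block, a contig-length offset and each library left out. Figures were drawn with matplotlib 3.10.9.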

Additional observations from a re-analysis of the deposited data

Results flagged for a closer look

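These named contigs differed between the 4 °C and the 14 °C libraries, by edgeR's test of that difference, although both stores differed from roots not stored in the same direction. Each value is the log2 difference of 4 °C over 14 °C.

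Among the shared rises, the level was higher at 4 °C than at 14 °C for isocitrate lyase (4.16), the O-methyltransferase COMT1 (3.97), alpha-amylase AMY1.1 (3.66), chitinase CHI2 (3.33), the membrane protein MCTP1 (2.75), the legumain At4g32940 (2.69), the sugar importer STP13 (2.21), CDC48E (2.17), the glycosyltransferase UGT90A1 (1.95), sucrose synthase comp69679_c2 (1.95), elongation factor EF-1 gamma (1.6), MCM7 (1.31), BXL1 (0.99) and the resistance protein RPM1 (0.62). The symbol of the CDC48E contig and its product, a proteasome subunit, name different proteins. It was lower at 4 °C for the clock gene APRR5 (-1.58).

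Among the shared falls, the level was lower at 4 °C than at 14 °C for sporamin GSPO-B1 (-7.38), peroxidase PER42 (-4.88), lipoxygenase LOX1.5 (-2.52), HSFB4 (-2.19), a glutathione S-transferase (-1.85), LEA5-D (-1.82), glutamine synthetase (-1.42), DREB1D (-0.99), WRKY53 (-0.83) and cinnamoyl-CoA reductase CCR1 (-0.67). It was higher at 4 °C, that is less reduced, for a calmodulin (2.3), the aquaporin TIP1-3 (1.91), GA2OX1 (1.28) and CSLC4 (0.9). CAB7 and ACS3 also passed that test (adjusted p = 0.016 and 0.032), but each had 9 or fewer counts over 1 stored group, so no size is given for them.

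Opposite calls were fewer than shared ones. Of all tested contigs 1757 (1.85%) were called higher at 14 °C and lower at 4 °C, and 1972 (2.08%) lower at 14 °C and higher at 4 °C. Both comparisons use the same libraries of roots not stored, whose chance deviations push both changes the same way. The excess of shared calls is therefore no measure of likeness between the stores.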

How the results depend on the processing

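Leaving out 1 library gave 15728 to 19182 contigs higher and 19607 to 22772 lower on average, 5623 to 8290 higher at both temperatures and 6862 to 10298 lower at both. A change of at least 2-fold left 11278 higher and 14426 lower on average, and 4096 higher and 5665 lower at both. A false discovery rate of 0.01 left 12894 higher on average, 4061 higher at both and 5459 lower at both. The 6 stored libraries as 1 group, which counts the difference between temperatures as spread, left 5898 higher and 6854 lower, and 4 named contigs then missed the threshold on the average: GSPO-B1 (adjusted p = 0.23), LOX1.5 (0.09), COMT1 (0.052) and PER42 (0.051). The other 77 recounts stayed within 1.5 times. The contig-length offset, chosen after seeing the data, gave 7846 higher and 8601 lower at both.

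No pairing by replicate number was assumed. Deviations from the group mean correlated at -0.424 to 0.259 between same-numbered libraries and at -0.224 to 0.375 between others. With 3 libraries per group these correlations cannot exclude a link by number. With the replicate block 17949 contigs were higher and 19785 lower on average, 6493 higher and 7632 lower at both.

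Of the 61 named contigs, 58 to 61 were called at both temperatures with 1 library left out. GSPO-B1 was lost in 7 of the 9 cases, and its 14 °C call also with library totals (adjusted p = 0.058), no filter (0.085), the replicate block (0.064) and the length offset (0.062). ATG18G was lost without replicate 1 or 2 of either the roots not stored or the 14 °C store, and PHO1;H3 without replicate 2 of either. Depth limits values under the floor of 3 counts.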
